A study of Homo sapiens with 2 samples.

Results

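The sites described here are the intervals with 100 or more reads in a list of SNRPA1 contacts that was made with the peak caller CLIPper, 236 of its 7651 distinct intervals (3.08%). Joined on 1 strand within 50 nt they formed 72 loci on 22 chromosomes, 36 on each strand. They held 64.8% of the reads summed over all intervals, or 40.6% when each joined locus counts only its strongest interval, since neighbouring intervals share reads. The loci were chosen by the reads themselves, so their numbers of reads describe them and are not tested. Just inside the limit lay an interval of 100 reads and 2 overlapping intervals of 101 reads on chromosome 17, and just outside it 3 adjoining intervals of 97 reads on chromosome 15 (85238986 to 85239017, minus strand).

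The assay was irCLIP, which recovers the RNA crosslinked to a protein by immunoprecipitating that protein. It was run on MDA-231-LM2, an established human breast cancer line selected from MDA-MB-231 for growth in the lung, with an antibody against the cells' own SNRPA1. The labels give no treatment, and both biological replicates form 1 group that the lists do not keep apart, so no spread between replicates can be given, and no control library was analysed here. Another list of this experiment, here the height list, scores its 1373 distinct peaks by height in tags.

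SNRPA1 belongs to the U2 snRNP, the spliceosome particle whose RNA pairs with the branch site of introns. With its partner SNRPB2 it binds a stem-loop near the 3′ end of the U2 snRNA. The human genome holds, beside the expressed U2 snRNA genes, many copies and pseudogenes of them, several of which lie inside other genes. Because these copies share sequence, the copy from which a read came is uncertain.

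A height-list peak overlapped 26 of the 72 loci on their strand (36.1%, 95% Wilson interval 26 to 47.6), which leaves 46 without. Over all 6442 loci that the whole CLIPper list gives when joined the same way, 20.5% held one, and over its single intervals 20.8%. The share did not rise steadily with reads. It was 7.43% for loci under 5 reads, 28.8% for 5 to 9, 42.9% for 10 to 19 and 44.4% (38.8 to 50.2) for 20 to 99 reads. For the loci of 100 or more reads the point value of 36.1% was below that of the classes of 10 to 99 reads, with an interval that includes both. Among the 33 loci of at least 200 reads 23 had no height-list peak, among the 7 of at least 1000 reads 5 had none, and among the first 10 it was 7. Read from the height list, its 12 peaks of 100 or more tags all lay at these loci. Both lists come from the same experiment, and at each of the 26 loci the reads exceeded the tags (lowest ratio 1.07). This overlap was thus close to fixed in advance.

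**Figure D1:**
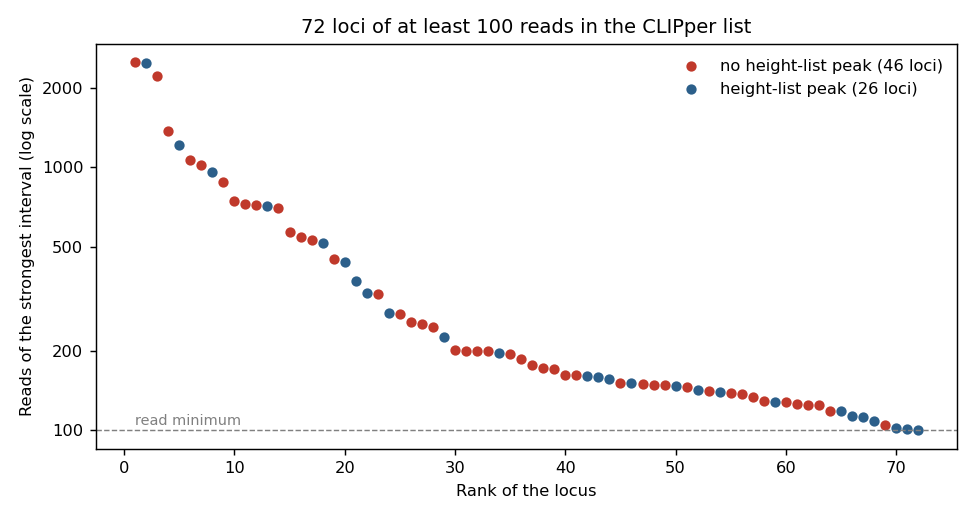
Reads of the strongest interval (log scale) of each of the 72 loci against its rank, coloured by whether a height-list peak overlaps the locus on its strand. Loci without a peak (46) are spread through the range, including 7 of the first 10 places.

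The strongest locus lay on chromosome 10 (103124659 to 103124694, minus strand), under the identifier ENSG00000222414.1. From its 5′ end its 3 intervals held 2455, 2507 and 2319 reads. The highest value has a 95% Poisson interval of 2410 to 2607, which like the other intervals on reads covers counting error only. The lowest of the 3 was 92.5% of the highest, so this locus of 36 nt is nearly level, and the nearest height-list peak on its strand was 451019 nt away. A weaker locus of chromosome 10 (103067382 to 103067414, plus strand, ENSG00000222238.1) had 125 reads in 1 interval and fewer in the next. The only locus of the chromosome with a peak was that of KIAA1217 (24061784 to 24061814, plus strand), where 128 reads met 120 tags.

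On chromosome 3, the locus at 73160240 to 73160275 (plus strand, ENSG00000223247.1) held 2232 reads over its first 29 nt and 1855 over the last 7. It was the third strongest of all and had the next height-list peak of its strand 3355607 nt away. A locus at 81558640 to 81558676 (plus strand, ENSG00000222389.1) was 1 interval of 171 reads, and one at 27884753 to 27884788 (plus strand, ENSG00000225548.1) had 134 reads in both of its intervals. The only locus with a peak on this chromosome was that of RUVBL1, an AAA+ ATPase gene (127793973 to 127794017, minus strand), with 5 intervals of 570 to 1217 reads over 45 nt and 586 tags.

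On chromosome 6, 4 loci had no peak. The strongest lay at 89773278 to 89773320 (minus strand, ENSG00000223001.1), with 894 reads in the first 6 nt and 1379 in the remainder. The locus at 66021000 to 66021039 (minus strand, ENSG00000188107.9) had 225 reads in its first interval and 258 in each of the next 3. The locus at 121901537 to 121901578 (minus strand, ENSG00000222659.1) reached 254 reads, and the locus at 19771140 to 19771186 (minus strand, ENSG00000226786.2) was 1 interval of 118 reads. KPNA5, an importin gene (117033544 to 117033586, plus strand), and WDR27 named the 2 loci with a peak, of 161 and 118 reads and only 9 tags each.

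Chromosome 9 also had 4 loci without a peak. At 89037914 to 89037955 (minus strand, ENSG00000222293.1) a lone interval of 42 nt held 1069 reads. At 72803535 to 72803642 (minus strand, ENSG00000222465.1) the locus reached 542 reads, and at 98622200 to 98622235 (plus strand, ENSG00000252847.1) and 19013164 to 19013196 (minus strand, ENSG00000155875.9) the loci had 178 and 146 reads. The kinesin gene KIF24 named the locus with a peak, at 437 reads and 47 tags.

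Chromosome 20 had 3 loci, and none held a peak. That at 18246390 to 18246431 (minus strand, ENSG00000252635.1) rose from 274 reads in its first 5 nt to 1021, then 990 and 769. That at 39652943 to 39652977 (plus strand, ENSG00000222612.1) was 1 interval of 743 reads. The third, at 30348633 to 30348669 (plus strand, ENSG00000088325.11), was level at 148 to 149 reads. Its identifier also covers an interval that carries a height-list peak of TPX2, a spindle assembly factor gene, at 3 tags and 27102 nt away. In all, the 5 chromosomes held 21 of the 72 loci, of which 16 had no peak.

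**Figure D2:**
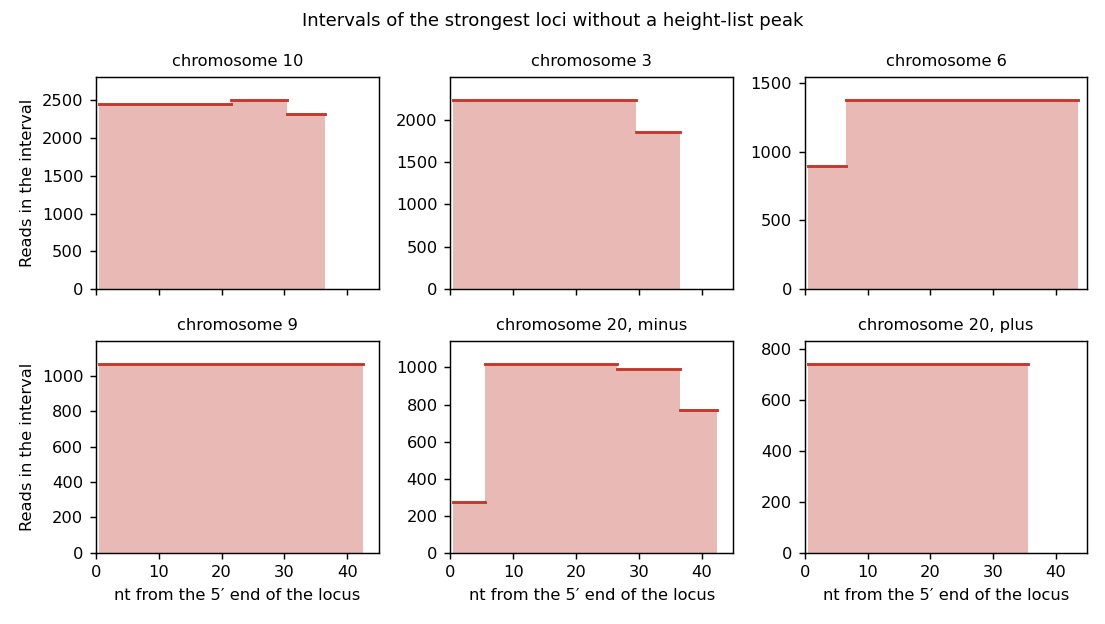
Reads in each interval against distance from the 5′ end of the locus (nt) for the strongest loci without a height-list peak on chromosomes 10, 3, 6, 9 and 20, with the 2 stronger of the 3 loci of chromosome 20. All 6 are between 35 and 43 nt long. Each interval is drawn at its single read value, so level stretches do not show the coverage of each nt.

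Further strong loci without a peak lay on other chromosomes. A locus of chromosome 15 (96289124 to 96289164, plus strand, ENSG00000222076.1) reached 882 reads, one of chromosome 1 (236431167 to 236431222, plus strand, ENSG00000222650.1) 727 and one of chromosome X (91053166 to 91053225, plus strand) 717. This last locus carries 2 identifiers, and a height-list peak of 5 tags in PCDH11X, a protocadherin gene, began 5 nt beyond its end, so it missed the overlap narrowly. A locus of chromosome 17 (39624299 to 39624340, plus strand, ENSG00000223125.1) had 567 reads and one of chromosome 14 (65591128 to 65591173, minus strand, ENSG00000222985.1) 528. Among the loci without an overlapping peak, that of PCDH11X was the only one with a peak within 1000 nt on either strand. Over the 46 loci, the median distance to the nearest height-list peak of the same strand was 1390 kb.

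At the 26 loci with a peak, that peak gives the locus a gene name. In 12 of them the named gene contains a copy of the U2 snRNA gene in the RefSeq table of GRCh38.p14, and in 14 it does not. Of the 1295 loci under 100 reads that hold a height-list peak, 1.39% have such a gene. The 12 were WDR74 at 2486 reads, RUVBL1 at 1217, RUBCNL at 962, LINC00910 at 714, IFT88 at 517, KIF24 at 437, GSKIP at 370, ZYG11B at 279, HDAC8 at 226, GREB1 at 147, RBM46 at 113 and SKA2 at 101. The 14 began with SLC6A15, which encodes an amino acid transporter, at 333 reads and FGD6, a guanine nucleotide exchange factor gene, at 197. The other 12 lay between 100 and 161 reads. They were KPNA5, PI4K2B, XKR4, NREP, MYO1D, HCN4, KIAA1217, WDR27, PDE3A, DONSON, PRKG2 and CAPZA2. The median of the strongest interval was 403.5 reads in the 12 and 141 in the 14, with overlapping ranges of 101 to 2486 and 100 to 333. The position of a locus relative to the copy was not analysed here, since the table and the lists use different builds.

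Identifiers divided these loci as well. The 72 loci carried 85 distinct Ensembl identifiers: 59 loci had 1, 12 had 2 and 1 had 3. Of the 12 loci whose gene contains a U2 copy 11 had more than 1 identifier, the exception being LINC00910, while none of the 14 other named loci did. At such loci the caller listed like reads under each identifier, as for WDR74, where ENSG00000133316.10 covered 178 nt and ENSG00000222328.1 covered 80 nt with the same highest value of 2486 reads. A gene lying inside another can give a site 2 identifiers. The split by identifiers is thus not independent of the containment that defined the groups. Most identifiers, 67 of 85, had no CLIPper interval anywhere else. Neither this share nor that of loci with several identifiers was computed for the weaker loci. Neither can therefore be called particular to the strong ones. Only ENSG00000222222.1 held more than 1 locus.

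No table available here pairs these identifiers with symbols, so the 46 loci without a peak were placed by their neighbours. For each, the nearest genes with a height-list peak on either side in hg19 were found, and the RefSeq table was asked which small RNA copies lie between or inside those genes. This neighbourhood spans megabases, with a median of 3.51 Mb over these loci, and shows only that a copy is near, not that reads fall on it. Of 43 loci with a gene on either side, 27 had a U2 copy in between (62.8%, 95% Wilson interval 47.9 to 75.6). Of 4776 loci under 100 reads without a peak, treated the same way, 11.3% had one, with a median neighbourhood of 3.42 Mb. Neighbouring loci can share a neighbourhood, so the intervals are too narrow.

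U2 copies are few, at 71 in the table with a median length of 187 nt. Of the 42 tied to these loci by a host gene or neighbourhood, only RNU2-1 and RNU2-2 are listed as snRNA genes. The others are listed as pseudogenes. A copy of U6, another spliceosomal snRNA, with 1282 copies, was near 79.1% of the strong and 73.6% of the weak loci. For 7SL, the RNA of the signal recognition particle, the shares were 62.8% and 54.8%, and for 7SK, a regulator of transcription elongation, 39.5% and 33.4%. For U4 the shares were 6.98% and 11.7%, for U5 2.33% and 4.59%, for U7 14% and 22.1% and for Y RNAs 11.6% and 8.73%. For U1, the snRNA that pairs with the 5′ splice site, 10 of 43 strong loci had a copy nearby (23.3%, 13.2 to 37.7) against 12.5% of the weak ones. The gap between strong and weak loci was widest for U2. For U1 the lower end of the interval lies so near the share of the weak loci that, with intervals too narrow, no difference can be read from it.

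**Figure D3:**
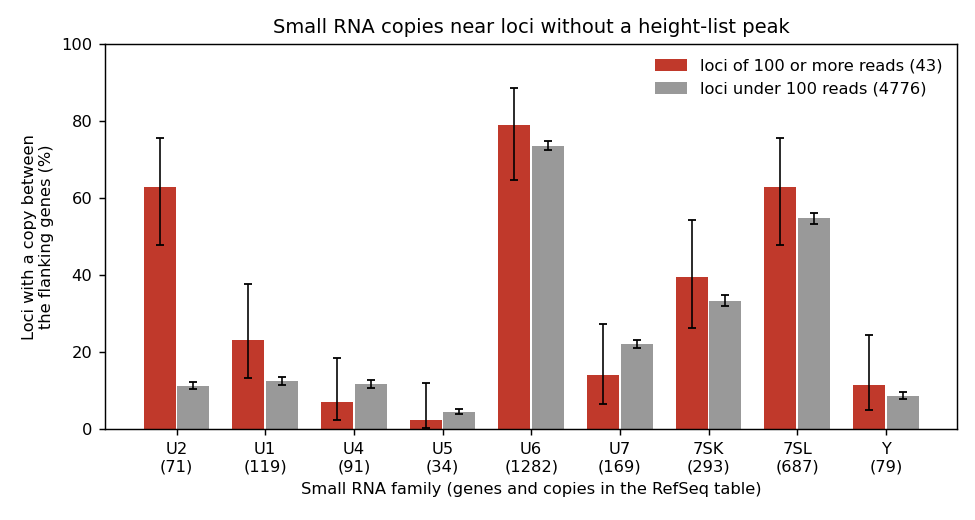
Percent of loci without a height-list peak that have a copy of each small RNA family between their flanking height-list genes, for 43 loci of 100 or more reads and 4776 weaker loci, with 95% Wilson intervals as error bars. The U2 bars stand at 62.8% and 11.3%, while for the other families the strong loci lie between 2.33% and 79.1%, with weak loci between 4.59% and 73.6%.

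The U2 copies near the strongest loci could mostly be named. For 20 of the 27 loci exactly 1 copy lay in the neighbourhood, among them RNU2-64P for the chromosome 3 locus of 2232 reads (between MITF and ROBO2), RNU2-61P for that of chromosome 6 with 1379 reads (between RNGTT and MDN1) and RNU2-36P for that of chromosome 9 with 1069 reads (between NTRK2 and SHC3). On chromosome 20, RNU2-56P lay between PET117 and RIN2 around the locus of 1021 reads, and RNU2-52P between ACTR5 and PTPRT around that of 743 reads. On chromosome 10 both RNU2-43P and RNU2-59P lay between TM9SF3 and OGA, and so did both loci of that region, with 2507 and 125 reads. The widest neighbourhood, 19.3 Mb on chromosome 4, was that of a locus of 125 reads with RNU2-34P in it, so very wide neighbourhoods are among the 27.

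Of the 16 loci named above for the 5 chromosomes, 5 had no U2 copy nearby. They were those of chromosome 3 with 134 reads, of chromosome 6 with 258 and 118, of chromosome 9 with 146 and of chromosome 20 with 149 reads, all far below the strongest locus of their chromosome.

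Taking host genes and neighbourhoods as one group, 39 loci were linked to a U2 copy, 30 were not, and 3 had no gene on 1 side. Over loci under 100 reads, judged the same way, 9.17% of 6071 were linked. Loci with a peak were judged by the named gene alone, so KPNA5 and NREP, whose neighbourhoods hold RNU2-8P and RNU2-49P, count as unlinked. All of the first 10 loci were linked, as were 20 of the 21 loci over 350 reads, the exception being a locus of chromosome Y with no gene on 1 side. Its identifiers include one shared with an interval under a height-list peak of PCDH11Y, a gene that contains RNU2-57P. Whether these cells carry a chromosome Y was not examined here, so the origin of reads placed on that chromosome is uncertain. Linked loci held 80.3% of the reads summed over the strongest interval of each locus. Their median was 370 reads against 144 in the unlinked loci, of which the strongest, SLC6A15, had 333. All 7 loci longer than 100 nt were linked. Span was measured over intervals of 100 or more reads, which favours long spans at strong loci. Length was not compared at like reads. The limit of 350 reads was set with these values known and lies just above 333. Reads chose these loci, so this split by strength is a description.

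The 3 loci with the most intervals, where overlapping intervals of different identifiers count apart, were also the longest. WDR74 had 21 intervals over 178 nt (chromosome 11, 62609104 to 62609281, minus strand), LINC00910 had 10 over 167 nt (chromosome 17, 41464607 to 41464773, minus strand) and RUBCNL had 16 over 139 nt (chromosome 13, 46948587 to 46948725, minus strand). The U2 copies that their genes contain, RNU2-2, RNU2-4P and RNU2-6P, are 191, 189 and 187 nt long. At each of the 12 host genes the locus was no longer than the copy. These copies are 113 to 194 nt long and 65 of the 72 loci at most 60 nt, so nearly any locus would meet this.

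Along WDR74, reads climbed from 229 in the first 5 nt to 617 at nt 24 to 32, stood between 517 and 596 up to nt 60, and rose to 2434 at nt 98 to 114. They dipped to 1876 at nt 115 to 120, reached 2486 at nt 121 to 127 and fell to 1030 at nt 138 to 143. A smaller rise to 1247 at nt 144 to 158 followed, before the fall to 341 at the 3′ end. The height-list peak of 1255 tags covered nt 100 to 134. The profile therefore has its main maximum toward the 3′ end, a smaller rise beyond it and a low shoulder toward the 5′ end.

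LINC00910 and RUBCNL had separate maxima. LINC00910 reached 446 reads at nt 12 to 32 and 714 at nt 109 to 125, with no interval of 100 reads between nt 65 and 86. The height list has 3 peaks there, of 43, 23 and 505 tags from the 5′ end on. RUBCNL reached 458 reads at nt 26 to 52, dropped to 116 at nt 58 to 70 and rose to 962 at nt 97 to 113. HDAC8, a histone deacetylase gene (chromosome X, 71596892 to 71597005, minus strand), rose under ENSG00000147099.15 from 118 reads at nt 1 to 36 through 137 to 226 at nt 66 to 114. Under ENSG00000222810.1 its intervals had 119, 116 and 193 reads.

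Of the long loci without a peak, that of chromosome 9 had 241 reads at nt 1 to 25 and 542 at nt 75 to 90. That of chromosome 5 (157403833 to 157403942, minus strand, ENSG00000222626.1) had 262 reads at nt 1 to 28 and 447 at nt 73 to 107. In these as in the 4 named long loci the higher maximum lay toward the 3′ end, 6 loci of 7. The locus of chromosome 11 (64915080 to 64915190, plus strand, ENSG00000222477.1) ran the other way, with 247 reads at nt 1 to 28 and 160 at nt 97 to 111. The distance between the strongest interval and the next strongest one at least 40 nt away ranged from 43 nt (WDR74) to 95 nt (LINC00910), with a median of 69.5 nt. In WDR74 and HDAC8 that other interval is a flank of the main maximum. The 2 loci of ENSG00000222222.1 on chromosome 1 have a like form. They held 149 and 150 reads, lay 95 nt apart and together spanned 175 nt (150209317 to 150209491, plus strand).

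**Figure D4:**
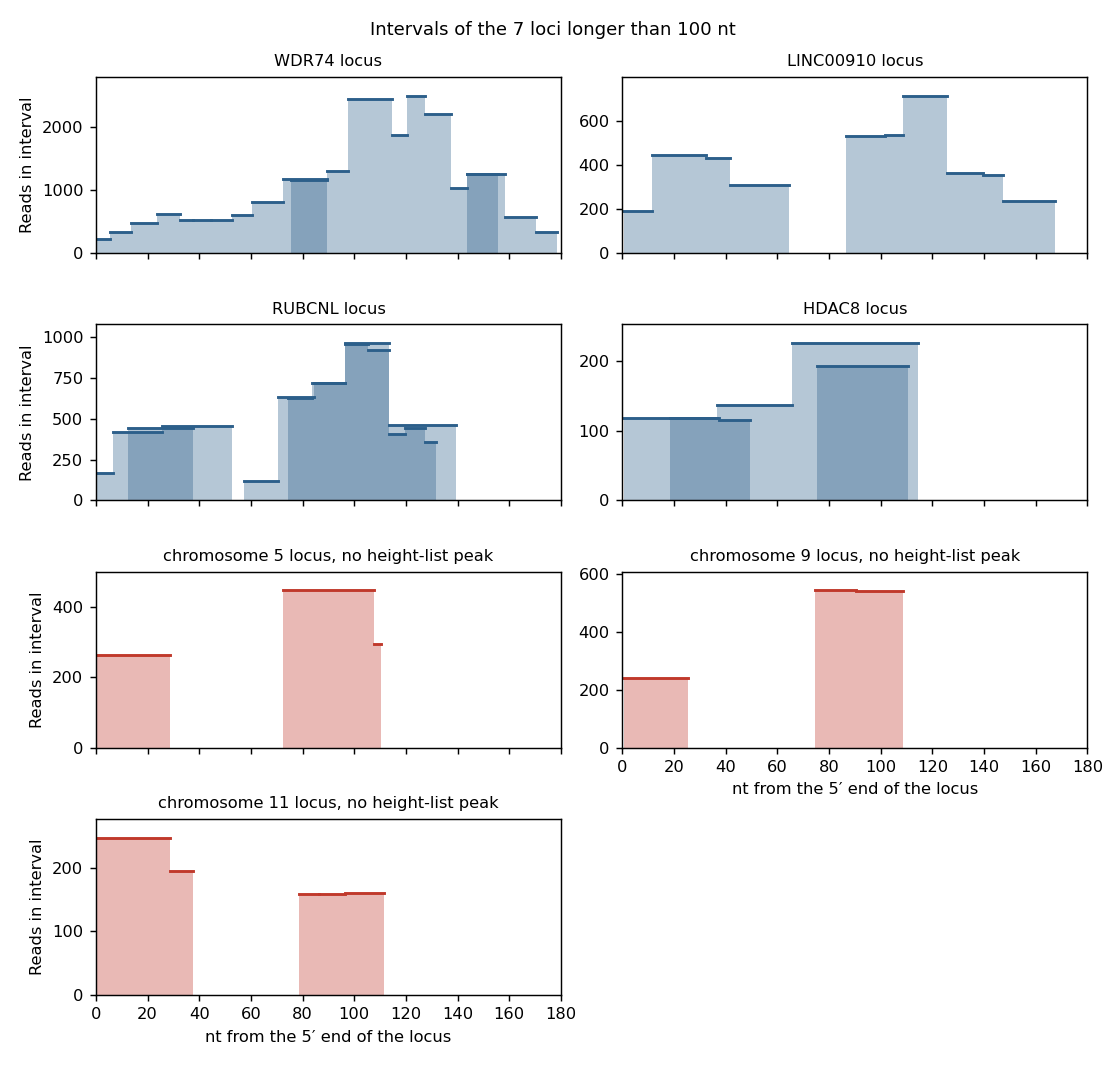
Reads in each interval against distance from the 5′ end (nt) for the 7 loci longer than 100 nt; overlapping intervals are drawn darker, and gaps are stretches without an interval of 100 reads. In 6 panels the higher maximum lies toward the 3′ end, and in the chromosome 11 panel it lies at the 5′ end with 247 reads.

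The other 65 loci were at most 60 nt long, and the median span over all 72 was 39.5 nt, with 27 nt in PDE3A the shortest. An interval's reads include those that it shares with its neighbours. Of 164 pairs of successive intervals within loci, 51 had identical reads. Some of these pairs are overlapping intervals listed under different identifiers, as at ZYG11B and SKA2. Strong intervals were short, at a median of 14 nt against 33 nt in the whole list. Several intervals made up 61 of the 72 loci, and in 59 several stood under the same identifier. In ZYG11B and SKA2 each identifier had a lone interval. Of the 61, 35 were flat, meaning that the lowest interval had at least 90% of the reads of the highest (57.4%, 44.9 to 69). Intervals under 100 reads were left out here, which makes every locus of up to 111 reads flat by construction and pushes weaker loci the same way. Among joined loci of several intervals whose highest had 20 to 99 reads, with no such limit, the share was 65.1%.

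Among the flat loci was that of FGD6, with 197 reads in both of its intervals over 37 nt and 161 tags (chromosome 12, 95519028 to 95519064, minus strand). Another is that of MYO1D, an unconventional myosin gene, with 142 reads in each of 3 intervals over 37 nt and 100 tags (chromosome 17, 30852590 to 30852626, minus strand).

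Reads of the CLIPper list and tags of the height list differed by locus. The median ratio of the strongest interval's reads to the tallest peak's tags was 2.19, with a range of 1.07 to 46.7. Reads of an interval and the height of a peak are unlike measures. The loci were also chosen for many reads, which favours high ratios. The lowest ratios were 1.07 in KIAA1217, 1.20 in GREB1 (147 reads, 122 tags; chromosome 2, 11701326 to 11701372, plus strand) and 1.22 in FGD6. The highest were 46.7 in HCN4, a pacemaker channel gene (140 reads, 3 tags; chromosome 15, 73643302 to 73643338, minus strand), 17.9 in KPNA5 and 16.7 in CAPZA2, an actin capping protein gene (100 reads, 6 tags; chromosome 7, 116543372 to 116543409, plus strand). The HCN4 peak has a deposited P of 0.0334, against at most 1.64e-08 for the other peaks at these loci. A ratio of 10 or more occurred at 7 loci and one under 2 at 11.

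The 12 host genes of U2 copies had a median ratio of 2.03 and a range of 1.20 to 10.7, the highest in ZYG11B (279 reads, 26 tags). In the 14 others the median was 3.12 and the range 1.07 to 46.7. In 6 of the 14 the ratio was above that of every host gene. Tags of the height list are unique ones, going by its file name, while no source used here says whether the CLIPper reads include repeats. Their part in these ratios was not tested.

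**Figure D5:**
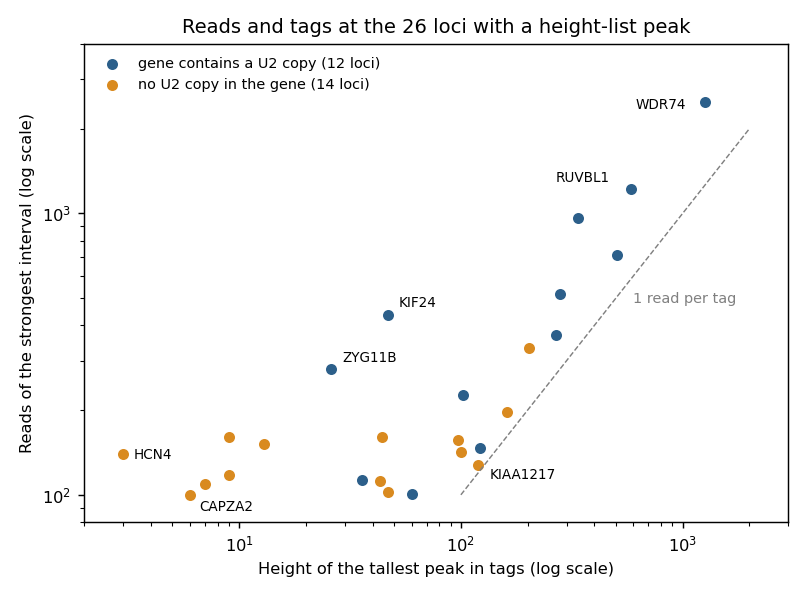
Reads of the strongest interval against the height of the tallest overlapping peak in tags, both on log scales, for the 26 loci with a peak, coloured by whether the named gene contains a U2 copy; the dashed line marks 1 read per tag. WDR74 stands at 2486 reads and 1255 tags, and HCN4 at the left edge with 140 reads and 3 tags.

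The loci not yet named were weaker. Of those with a U2 copy nearby they were a locus of chromosome 1 with 331 reads (RNU2-15P), and loci of chromosomes 8, 4, 2, 14 and 18 with 200, 195, 187, 151 and 139 reads. Of those without a U2 copy nearby the strongest lay on chromosome 1 (144944676 to 144944717, plus strand, ENSG00000222788.1), with 276 reads. Others had 203 reads on chromosome 4, 201 on chromosome 17, 172 on chromosome 19, 163 on chromosomes 13 and X, 128 on chromosome 12 and 126 on chromosome 2, and 3 more on chromosome 1 had 129 to 141. A locus of chromosome 21 with 105 reads and another of chromosome Y had no gene on 1 side.

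A symbol came mostly from an overlapping height-list peak, so most of the 46 loci without one could not carry a name. Among the names that could be given there was none of the 22 genes listed for proteins of the U2 snRNP and its partners, and neither PLEC, ERRFI1, MALAT1 nor NEAT1. Only 3 of the 22 are in the height list at all. Of its 1373 distinct peaks few lie at these loci, 26 of which overlap one, so the absence says little of these genes. In the height list SF3B3, DDX42 and U2SURP each had a peak of 4 tags, with at most 7 CLIPper reads there. PLEC and ERRFI1 had at most 6 reads at their peaks. Symbols that begin with RNU or RN7SK, 3 of which are in the height list, were not among the names either, which says nothing of the unnamed loci. A locus on a small RNA copy inside a longer gene can carry that gene's name.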

How the data were processed

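SNRPA1 irCLIP libraries from 2 biological replicates of MDA-231-LM2 cells were analysed from 2 peak lists that do not keep the replicates apart. Per the submitters' processing notes, cutadapt 1.10, BWA 0.7 and build hg19 were used. In the CLIPper list, named so after its file, the authors deposited a p-value per interval, and the interval's name carries an Ensembl identifier and the reads. In the height list, pooled per its file name, the authors deposited a signal per peak, its height in tags, with an Entrez identifier. The treatment of reads that map to several places and the caller of the height list are not given in the sources used here. Library depths are unknown.

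Repeated intervals were counted once with the highest reads, intervals of at least 100 reads were joined on 1 strand within 50 nt, and a height-list peak was counted where it overlapped by at least 1 nt on that strand. Entrez identifiers took symbols from the RefSeq gene table of GRCh38.p14 (99.3% of 1454 entries), which served only for names, lengths, containment and neighbourhood. Positions are 1-based hg19 as deposited. Shares carry Wilson and reads exact Poisson 95% intervals for counting error only. No test was run, since the reads chose the members and the design has 1 group. The members, lists and comparisons were chosen with earlier results of these data known. Loci were named by strength, interval number, span, ratio of reads to tags and chromosome (10, 3, 6, 9 and 20), and the others to account for the remaining members. Joining, overlap and neighbourhood steps were tested on simulated intervals. Alternatives covered the read minimum, the deposited p, the joining distance, the overlap and the neighbourhood. Computations ran in Python 3.11.15 with pandas 2.3.3, scipy 1.17.1 and numpy 2.4.6, and plots in matplotlib 3.10.9.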

Additional observations from a re-analysis of the deposited data

How the results depend on the processing

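Of 60 alternative values, 48 stayed within the limits set, 1.5 times for a count and the 95% interval for a share of loci. For the share of reads any change in the rounded value counted as a move. With a minimum of 50 reads there were 114 loci, 47 with a height-list peak, and 68.5% of all reads in place of 64.8%. With 200 reads there were 125 intervals and 33 loci, 26 of several intervals, 10 with a peak and 9 without one on the 5 chromosomes, and 54.4% of reads. These changes follow from the threshold. The share of reads was 83.9% among intervals with p under 1e-10 and 67.7% with every entry counted, and intervals of a locus share reads. The share of loci with a U2 copy nearby was 76.2% with the second gene on each side, where 19.9% of weak loci had one, and 55.2% against 8.93% within 5 Mb. The neighbourhood and flatness settings were chosen after seeing the data. No paired analysis was possible because there is no other group to pair with. Replicates could not be left out in turn, since neither list keeps them apart. Depth is unknown.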

Other observations

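At loci with 2 identifiers the deposited p could differ widely between them at like reads. Of the 12 such loci, 9 had the same highest reads under both identifiers, and at 6 of these the p differed. At 4 of the 12 loci it was listed at 0 under both. At SKA2, overlapping intervals of 101 reads, 43 nt and 27 nt wide, were listed at 8.33e-159 under ENSG00000182628.8 and at 2.73e-46 under ENSG00000252212.1. At RBM46, 113 reads were listed at 2e-186 and 2.42e-104, and at ZYG11B 279 reads were listed at 0 under one identifier and at 3.75e-65 under the other. These are the caller's own values and no test of this work.

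The loci without a peak spanned a like range. With 100 to 200 reads, 10 of 11 loci that have a U2 copy nearby had a deposited p above 1e-160, the highest 1.86e-24 for ENSG00000222222.1, and the remaining one, in the 19.3 Mb neighbourhood of chromosome 4, had 5.26e-207. Of 12 loci with like reads and no U2 copy nearby, 0 had a p above 1e-160, and the highest was 7.05e-197. Outside that window the locus of ENSG00000222788.1, with 276 reads and no U2 copy nearby, went the other way at 3.55e-64. The 2 loci of the window with no gene on 1 side had 6.92e-39 and 6e-52. Both loci of ENSG00000222222.1 are among the 11. At named loci in the same window, counted by identifier, 5 of 7 at host genes of U2 copies were above 1e-160. At the other named loci it was 1 of 13. The share over loci under 100 reads was not computed. The grouping, the window and the limit of 1e-160 were chosen after these values had been seen. The length of the genes behind these identifiers was not analysed here, and its part in the p-values was not tested.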
